A study of Mus musculus with 8 samples.

Results

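Expression of 10 scavenger and dead-cell uptake receptors was followed in bone marrow-derived macrophages (BMDMs) with intact or conditionally deleted *Ncoa6*, with and without crystals that activate the NLRP3 inflammasome. They are *Msr1*, *Marco*, *Cd36*, *Scarb1*, *Mrc1*, *Cd163*, *Stab1*, *Mertk*, *Axl* and *Timd4*, which were chosen by name as receptors of these functions, 10 of the 50615 genes in the table of counts. All 10 had a sum of at least 10 counts over the libraries and were tested among 17625 such genes. BMDMs were grown from bone marrow of C57BL/6 mice in M-CSF (20 ng/ml, 6 days) and then left in medium or treated with LPS (100 ng/ml, 4 h) and afterwards with crystals of MSU, monosodium urate (200 µg/ml, 2 h). Both genotypes carry floxed *Ncoa6* alleles, with loxP sites around exon 7. *Ncoa6*-KO mice (Ncoa6 fl/fl LysM CRE) also carry Cre recombinase at the lysozyme locus *Lyz2*, which is active in myeloid cells, and *Ncoa6*-sufficient mice (Ncoa6 fl/fl) carry no Cre and were labelled WT. Each of the 4 groups had 2 libraries, which the methods describe as BMDMs from different mice. The age and sex of these mice are not given in the sources used here. LPS and MSU were always given together, so their effects cannot be told apart. Cre was carried by all *Ncoa6*-KO mice and by no *Ncoa6*-sufficient mice. Its effects and those of losing *Ncoa6* cannot be told apart either.

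Scavenger receptors are surface proteins by which macrophages take up modified lipoproteins, microbes, crystals and other particles, and dead-cell uptake receptors recognise phosphatidylserine exposed by dying cells, directly or through soluble bridging proteins. *Msr1* and *Marco* encode class A scavenger receptors with collagen-like stalks. *Cd36* and *Scarb1* encode class B receptors, the first a receptor for oxidized LDL and long-chain fatty acids and the second the receptor for HDL. *Mrc1* encodes the mannose receptor CD206, *Cd163* the receptor for haptoglobin-hemoglobin complexes, and *Stab1* the clearance receptor stabilin-1. *Mertk* and *Axl* encode receptor tyrosine kinases that bind phosphatidylserine through the bridging protein Gas6, and *Timd4* encodes TIM-4, which binds it directly and is known from resident macrophages. BMDMs grown in M-CSF are widely used to study these receptors, and LPS is known to alter several of them.

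Libraries held 25281955 to 33673552 expected counts, and replicate libraries had correlations of log2 CPM across genes of 0.987 to 0.992. *Ncoa6* itself, the check of the labels, had 1515 and 1405 normalized counts in *Ncoa6*-sufficient and 784 and 622 in *Ncoa6*-KO BMDMs with medium, and 1297 and 1173 against 563 and 526 with LPS + MSU. Its log2 fold change was -1.05 (adjusted p = 0.00236 from edgeR) with medium and -1.18 (adjusted p = 0.00189) with LPS + MSU. Whole-gene counts do not resolve the deleted exon. With 1 library left out the change with medium ranged from -1.23 to -0.90, and it did not pass the test without the first *Ncoa6*-sufficient library. The macrophage markers *Adgre1*, *Csf1r*, *Itgam*, *Cd14*, *Lyz2*, *Fcgr1* and *Cd68* were present in every group, with summed normalized counts of 386126 to 453540 in *Ncoa6*-sufficient and 247036 to 284898 in *Ncoa6*-KO BMDMs with medium, and 501107 to 569451 against 362813 to 386885 with LPS + MSU. Without *Lyz2*, the locus that carries Cre, the sums were 176233 to 181442 against 135042 to 157343 and 283772 to 299122 against 239548 to 257500. In edgeR 3 of the 7 markers passed as lower in *Ncoa6*-KO BMDMs under each condition, beside 1.3% and 1.63% of all genes. All 7 had a log2 fold change under 0, with medians of -0.41 and -0.17. Of 6 markers of T and NK cells, at least 4 were at 0 in both libraries of each group. In these bulk samples, fewer cells of a type and less RNA per cell cannot be told apart.

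Counts were normalized by bringing each library to an effective size of 29332189, the mean over libraries. Normalized counts of the receptors reached 43725 for *Stab1* and stayed under 5 for *Timd4* with medium. Because longer transcripts collect more reads, levels of different receptors were compared per kb of merged exons. *Cd36* had the highest level per kb in *Ncoa6*-sufficient BMDMs with medium (11220 ± 354, SD, n = 2), followed by *Stab1* (3569 ± 374), *Mrc1* (3087 ± 66.9), *Marco* (2901 ± 380), *Msr1* (1429 ± 40.6), *Mertk* (598 ± 0.952), *Scarb1* (324 ± 36.8), *Axl* (122 ± 36.3), *Cd163* (18.8 ± 0.149) and *Timd4* (0.543 ± 0.209). *Mrc1* and *Marco* were the only neighbours in this order whose libraries overlapped. In *Ncoa6*-KO BMDMs with medium the order of the means was the same, but *Marco* (1295 ± 341 per kb, SD, n = 2) lay clear of *Mrc1* (2932 ± 226) and overlapped with *Msr1* (1185 ± 265). With LPS + MSU, *Marco* reached 10450 ± 2854 per kb in *Ncoa6*-sufficient BMDMs and overlapped with *Cd36* (10239 ± 889), whereas in *Ncoa6*-KO BMDMs it stayed at 6784 ± 649, under *Cd36* (10022 ± 166). *Msr1* moved up to the third place in stimulated cells, at 5001 ± 332 and 3788 ± 269 per kb, and overlapped there with *Stab1* (3537 ± 617) in *Ncoa6*-KO BMDMs. *Axl* passed *Scarb1*, and *Timd4* passed *Cd163*, which became the lowest at 4.81 ± 0.0203 and 4.75 ± 1.98 per kb. With the length of the longest coding transcript in place of merged exons, *Mertk* and *Scarb1* changed places with medium, *Axl* and *Scarb1* with LPS + MSU, *Marco* and *Msr1* in *Ncoa6*-KO BMDMs with medium and *Marco* and *Cd36* in *Ncoa6*-sufficient BMDMs with LPS + MSU, so these orders rest on the length used. The receptors together took 0.352% to 0.513% of all counts of a library.

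**Figure D1:**
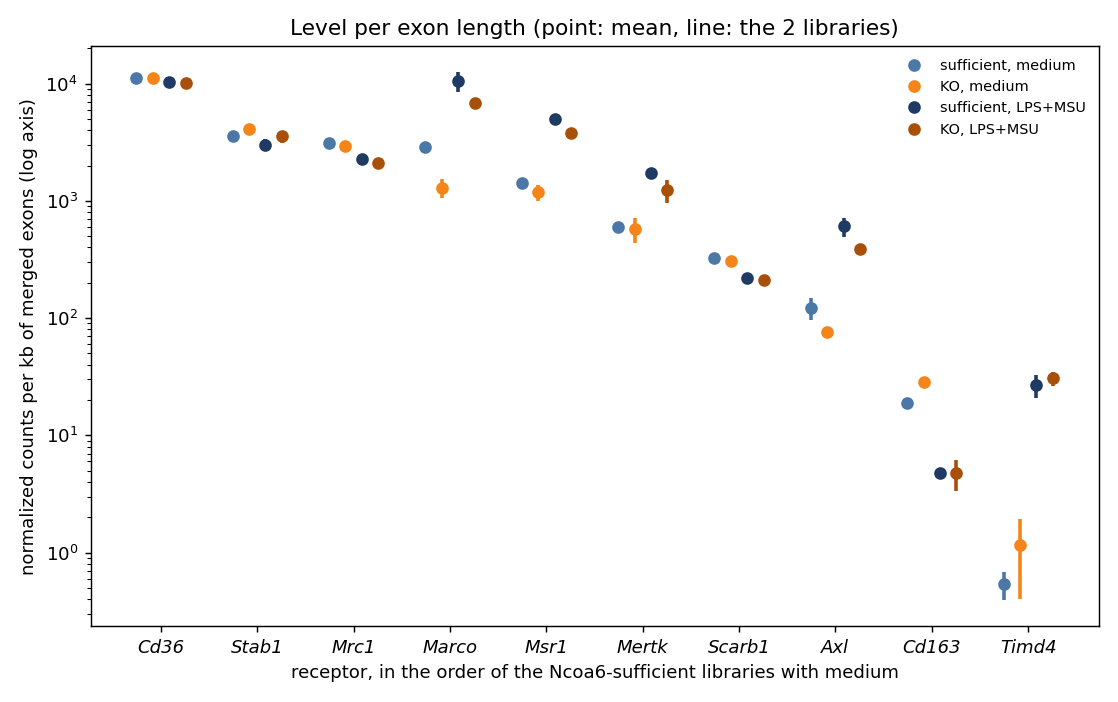
Normalized counts per kb of merged exons (log axis) of the 10 receptors, in the order of the Ncoa6-sufficient libraries with medium; points are means and lines join the 2 libraries of a group. *Cd36* leads with medium, and *Marco* overlaps with it only in Ncoa6-sufficient BMDMs with LPS + MSU.

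RefSeq promoter sequences (GRCm38.p6) were found for 8 of the 10 receptors; *Msr1* and *Scarb1* had none in the table. The 250 bases before the RefSeq start are shown, 5′ to 3′ on the strand of the gene, for the receptor that fell in *Ncoa6*-KO BMDMs with medium and rose with LPS + MSU (*Marco*, chr1:120505025-120505274, reverse strand), for receptors of dying cells that rose with LPS + MSU (*Axl*, chr7:25788734-25788983, reverse strand, and *Timd4*, chr11:46810549-46810798, forward strand), and for receptors that fell with LPS + MSU (*Mrc1*, chr2:14229164-14229413, forward strand, and *Cd163*, chr6:124304401-124304650, forward strand). Capitals mark matches to AGGTCA, the half-site bound by many nuclear receptors, or to GAGGAA, a core bound by ETS factors such as PU.1, with the reverse complement TTCCTC where the match lies on the other strand.
Marco: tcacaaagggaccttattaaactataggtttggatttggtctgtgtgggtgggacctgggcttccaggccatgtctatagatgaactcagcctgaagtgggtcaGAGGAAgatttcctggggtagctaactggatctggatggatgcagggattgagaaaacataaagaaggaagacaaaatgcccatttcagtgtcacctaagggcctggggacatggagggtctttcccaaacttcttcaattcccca
Axl: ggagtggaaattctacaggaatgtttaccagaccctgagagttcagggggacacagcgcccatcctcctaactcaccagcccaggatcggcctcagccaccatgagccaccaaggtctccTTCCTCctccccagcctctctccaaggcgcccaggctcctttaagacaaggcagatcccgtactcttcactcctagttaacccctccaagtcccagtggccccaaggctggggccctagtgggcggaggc
Timd4: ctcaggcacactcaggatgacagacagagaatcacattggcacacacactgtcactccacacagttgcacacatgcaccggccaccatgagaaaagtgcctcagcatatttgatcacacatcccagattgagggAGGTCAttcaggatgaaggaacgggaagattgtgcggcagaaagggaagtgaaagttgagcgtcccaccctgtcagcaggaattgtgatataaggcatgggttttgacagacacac
Mrc1: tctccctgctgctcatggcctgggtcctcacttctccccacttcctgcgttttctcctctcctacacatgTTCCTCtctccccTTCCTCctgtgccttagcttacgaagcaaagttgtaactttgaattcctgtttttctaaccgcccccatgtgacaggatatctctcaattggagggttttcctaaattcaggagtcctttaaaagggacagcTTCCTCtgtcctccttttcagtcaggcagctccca
Cd163: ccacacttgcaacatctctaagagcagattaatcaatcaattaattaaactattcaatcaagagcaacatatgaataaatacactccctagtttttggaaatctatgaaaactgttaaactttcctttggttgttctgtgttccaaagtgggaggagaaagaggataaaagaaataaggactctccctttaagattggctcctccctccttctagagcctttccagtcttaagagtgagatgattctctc
GAGGAA was present once before *Marco*, at base -146 counted from the start, once before *Axl*, at base -130, once before *Stab1*, and 3 times before *Mrc1*, and 23.1% of the 27025 mouse promoter windows of this length held it on either strand. AGGTCA was present before *Timd4*, at base -116, and before *Cd36*, and in 13.8% of all windows. The window of *Cd36* lies 52905 bp from the first base of the gene in the GENCODE annotation, which lists another start. TGANTCA, the core bound by AP-1, and CACGTG, the E-box, were in none of the 8 windows and in 6.87% and 6.05% of all windows. None of the 4 motifs overlapped with another in these windows, and no motif was in the windows of *Cd163* and *Mertk*. The matches describe letters only, and binding was not measured.

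The comparison of genotypes with medium alone asks whether the receptors differ between the genotypes before any stimulus. *Marco* (ENSMUSG00000026390, chromosome 1 from 120474538 to 120505024, reverse strand, GRCm38) was the receptor that passed the test. It had 5068 and 6102 normalized counts in *Ncoa6*-sufficient and 2029 and 2957 in *Ncoa6*-KO BMDMs. Both *Ncoa6*-KO libraries lay under both *Ncoa6*-sufficient libraries. *Marco* fell by 1.16 on the log2 scale, to 44.6% of its level in *Ncoa6*-sufficient BMDMs (standard error 0.208, 95% confidence interval -1.62 to -0.71, adjusted p = 0.0228 from edgeR). Of all genes tested, 1.3% passed the test as lower, 0.573% as higher and 1.88% in either direction, and 12.8% had an unadjusted p under 0.05, as did 3 of the receptors. The single call is a result about *Marco* and not about the group, whose median log2 fold change was -0.06 beside -0.03 over all genes.

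The call for *Marco* rested on individual libraries. Its adjusted p was 0.121 (log2 fold change -1.29) without the first *Ncoa6*-sufficient library, 0.132 (-1.02) without the second, and 0.0647 (-0.92) without the first *Ncoa6*-KO library, and the call remained in the other 13 of 16 alternative fits. The group that loses a library then holds 1, which the fit assumes to vary like the other groups. Within a library, the level of *Marco* per kb was 1.81 and 2.26 times that of *Msr1* in *Ncoa6*-sufficient BMDMs and 1.06 and 1.12 times in *Ncoa6*-KO BMDMs with medium. This ratio does not depend on how libraries were scaled, and the genotypes did not overlap, but its size rests on the lengths used. It holds the same *Marco* counts as the test and is no separate evidence. *Msr1* (chromosome 8 from 39581685 to 39642673), the other class A receptor, had 9246 and 8882 against 6328 and 8709 normalized counts, a log2 fold change of -0.27 (95% confidence interval -0.59 to 0.05).

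The kinase *Axl* (chromosome 7 from 25757273 to 25788705) had 744 and 485 normalized counts in *Ncoa6*-sufficient and 407 and 357 in *Ncoa6*-KO BMDMs with medium. The genotypes did not overlap, and the log2 fold change of -0.69 (95% confidence interval -1.16 to -0.21) did not pass the adjusted test in edgeR (adjusted p = 0.172). DESeq2 gave an adjusted p of 0.0449, and the call was also made by edgeR without the filter on low counts (adjusted p = 8.03e-07) and with the replicate number as a block (adjusted p = 0.00221), so it depends on the fit. These fits called more genes in all: 496, 1152 and 1023, beside 331 in edgeR with the filter and no block. *Cd163* (chromosome 6 from 124304656 to 124330527) had 102 and 103 against 171 and 141 normalized counts, with a log2 fold change of 0.61 (95% confidence interval 0.14 to 1.08, adjusted p = 0.219). *Mertk*, the other kinase, had 2589 and 2594 against 3103 and 1897 normalized counts, so that the *Ncoa6*-KO libraries lay on either side of the *Ncoa6*-sufficient libraries. *Timd4* was close to absent, with 2 and 1 counts against 6 and 1 counts, a ratio of 2.26 with a counting interval of 0.516 to 13.5 (exact Clopper-Pearson, 95%, counting error only).

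The remaining receptors showed small differences with narrow intervals. *Cd36* had 41179 and 39383 against 41446 and 39091 normalized counts (log2 fold change 0.00, 95% confidence interval -0.25 to 0.25). *Scarb1* had 2973 and 2530 against 2807 and 2442 (-0.07, interval -0.32 to 0.18). *Mrc1* had 19367 and 19969 against 19702 and 17663 (-0.07, interval -0.32 to 0.17). These intervals leave out a fall as large as that of *Marco*. *Stab1* had 33995 and 39443 against 40459 and 43725 (0.20, interval -0.14 to 0.54). In all, 5 of 10 receptors did not overlap between the genotypes, 3 lower (*Msr1*, *Marco* and *Axl*) and 2 higher (*Cd163* and *Stab1*), and 43.1% of all genes did not overlap (24.5% lower and 18.6% higher). The sum of 6 endothelial markers was 410.1 to 449.1 in *Ncoa6*-KO and 656.7 to 800.0 in *Ncoa6*-sufficient BMDMs with medium, and its part in these differences, like that of the lower macrophage markers, was not tested.

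**Figure D2:**
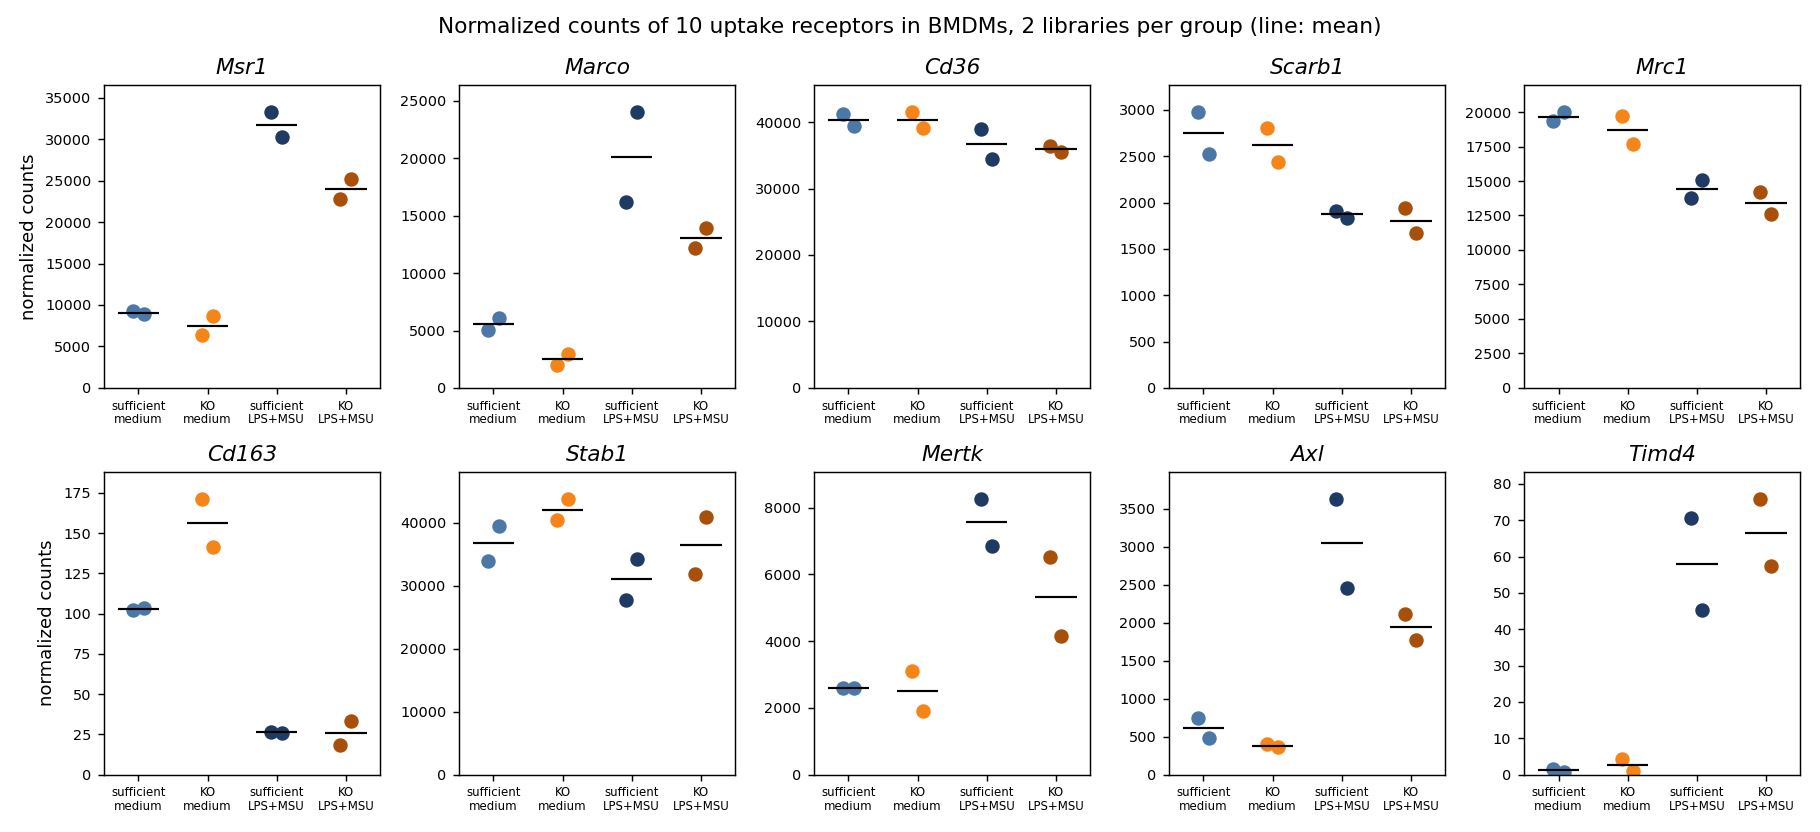
Normalized counts of each receptor (axes start at 0) in the 2 libraries of each group, with a line at the mean. For *Msr1*, *Marco* and *Axl* both *Ncoa6*-KO libraries lie under both *Ncoa6*-sufficient libraries in each culture condition. Of these differences only that of *Marco* with medium passed the edgeR test. Over all genes, 43.1% with medium and 47.4% with LPS + MSU do not overlap between the genotypes. *Msr1*, *Marco*, *Mertk*, *Axl* and *Timd4* are higher with LPS + MSU.

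The comparison of genotypes after LPS + MSU asks the same question in stimulated cells. None of the receptors passed the edgeR test, whereas 3.59% of all genes did, and 3 of the 10 (*Msr1*, *Marco* and *Axl*) had an unadjusted p under 0.05, as did 17.4% of all genes. These receptors and *Mertk* were lower in both *Ncoa6*-KO libraries than in both *Ncoa6*-sufficient libraries, which makes 4 of 10 without overlap, all lower, beside 47.4% of all genes in either direction and 22.7% lower. *Marco* had 16231 and 24000 against 12176 and 13943 normalized counts (log2 fold change -0.62, 95% confidence interval -1.07 to -0.17, adjusted p = 0.137). *Msr1* had 33215 and 30240 against 22825 and 25240 (-0.40, interval -0.72 to -0.08, adjusted p = 0.179). *Axl* had 3623 and 2461 against 2113 and 1775 (-0.65, interval -1.09 to -0.20, adjusted p = 0.121), and *Mertk* had 8251 and 6864 against 6523 and 4141 (-0.50, interval -1.01 to 0.01, adjusted p = 0.293).

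The outcome for these 4 receptors depended on the fit. *Msr1*, *Marco* and *Axl* passed with DESeq2 (adjusted p = 0.0137 for *Marco*), and all 4 passed without the filter on low counts. With the replicate number as a block all 4 passed too, the adjusted p for *Marco* being 0.00174, although no label ties equal numbers to one mouse. Over all genes, DESeq2, no filter and the block called 849, 1611 and 1532, beside 632 in edgeR with the filter and no block. The direction was lower in every alternative fit for all 4. The other 6 receptors had log2 fold changes from -0.10 (*Mrc1*) to 0.23 (*Stab1*), with adjusted p from edgeR of 0.492 or more. *Cd36* (39017 and 34502 against 36402 and 35558 normalized counts) and *Scarb1* (1912 and 1834 against 1938 and 1673) overlapped between the genotypes, as did *Mrc1*, *Cd163*, *Timd4* and *Stab1*. The median over the receptors was -0.08, beside 0.00 over all genes.

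**Figure D3:**
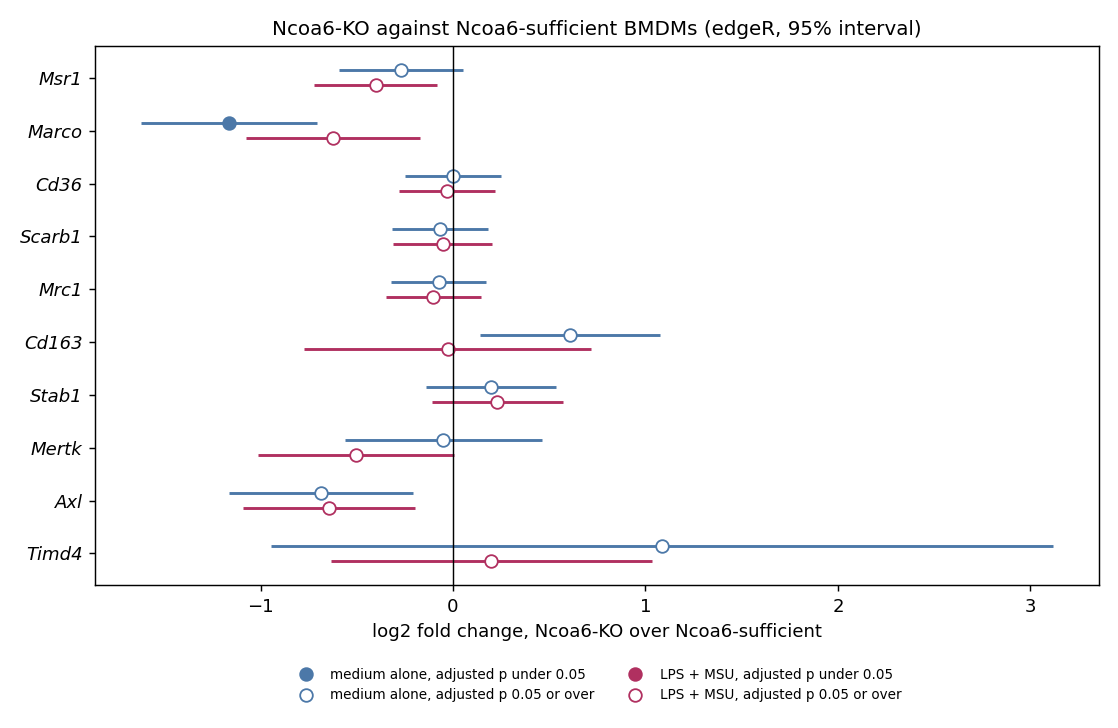
Log2 fold change of each receptor in *Ncoa6*-KO over *Ncoa6*-sufficient BMDMs from edgeR, with lines for the 95% confidence interval, for medium alone and LPS + MSU; filled points passed an adjusted p of 0.05. *Marco* with medium is the filled point, and the intervals of *Axl* lie under 0 in both conditions without passing the adjusted test.

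LPS + MSU changed most of the receptors in both genotypes. In each genotype, 5 receptors rose (*Msr1*, *Marco*, *Mertk*, *Axl* and *Timd4*), 3 fell (*Cd163*, *Mrc1* and *Scarb1*) and *Cd36* and *Stab1* did not pass the test. With the replicate number as a block within each genotype, *Stab1* passed as lower in both (adjusted p = 0.00377 and 0.00975) and *Cd36* in *Ncoa6*-KO BMDMs (adjusted p = 0.0420), with a single block *Stab1* passed in *Ncoa6*-sufficient BMDMs (adjusted p = 0.0322), and with library size in place of TMM factors both passed in both genotypes. This is a condition in which much of the transcriptome moved: 55.2% of all genes passed in *Ncoa6*-sufficient BMDMs (24.7% higher and 30.5% lower) and 53.1% in *Ncoa6*-KO BMDMs (25.2% and 27.9%). In each genotype all but *Stab1* had no overlap between medium and LPS + MSU, 5 higher and 4 lower, and over all genes 78.5% had none in *Ncoa6*-sufficient (35.1% higher and 43.5% lower) and 76.5% in *Ncoa6*-KO BMDMs (35.4% and 41.1%). The median log2 fold change of the receptors was 0.71 and 0.46, beside -0.12 and -0.07 over all genes. Both responses of a receptor are given side by side below for the *Ncoa6*-sufficient and the *Ncoa6*-KO cells. With library size in place of TMM factors, the median over all genes was -0.78 and -0.70, against which all responses would be read, and the receptors named as rising or falling kept their direction.

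*Axl* rose by 2.30 (standard error 0.214, adjusted p = 3.23e-06 from edgeR) and 2.35 (0.219, adjusted p = 3.71e-06) on the log2 scale, from 744 and 485 to 3623 and 2461 normalized counts in *Ncoa6*-sufficient BMDMs. *Marco* rose by 1.85 (0.210, adjusted p = 1.71e-05) and 2.39 (0.215, adjusted p = 2.73e-06), 3.60-fold and 5.24-fold. *Msr1* rose by 1.81 (0.149, adjusted p = 1.27e-06) and 1.68 (0.149, adjusted p = 2.48e-06), and *Mertk* by 1.54 (0.235, adjusted p = 0.000178) and 1.09 (0.233, adjusted p = 0.00211). Each of these receptors was higher in both stimulated libraries than in both unstimulated libraries of its genotype. For *Mertk* in *Ncoa6*-KO BMDMs the call was lost with library size in place of TMM factors (adjusted p = 0.0834). *Timd4* went from 3 counts in all in the *Ncoa6*-sufficient libraries with medium to 84 with LPS + MSU, a ratio of 48.3 (counting interval 16.0 to 239), and from 7 to 99 in the *Ncoa6*-KO libraries, a ratio of 24.6 (11.5 to 62.9). It was still among the lowest of the receptors, at 26.7 ± 8.20 and 30.6 ± 6.00 normalized counts per kb (SD, n = 2).

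*Cd163* fell by 1.96 (standard error 0.273, adjusted p = 8.63e-05 from edgeR) and 2.60 (0.266, adjusted p = 8.04e-06) on the log2 scale. It went from 102 and 103 to 26.3 and 26.2 normalized counts in *Ncoa6*-sufficient BMDMs and from 171 and 141 to 18.3 and 33.6 in *Ncoa6*-KO BMDMs, with overlap between the genotypes after LPS + MSU. *Mrc1* fell from 19367 and 19969 to 13759 and 15079 normalized counts and, in *Ncoa6*-KO BMDMs, from 19702 and 17663 to 14227 and 12626, by 0.45 (adjusted p = 0.00540) and 0.48 (adjusted p = 0.00393) on the log2 scale. Without the first stimulated *Ncoa6*-sufficient library, the fall of *Mrc1* there was 0.34 and missed the threshold (adjusted p = 0.0780). *Scarb1* fell by 0.56 (adjusted p = 0.00164) and 0.54 (adjusted p = 0.00211). *Cd36*, the other class B receptor, was at -0.13 (95% confidence interval -0.38 to 0.12) and -0.16 (interval -0.41 to 0.09), and its difference from *Scarb1* was not tested. *Stab1*, which had 27708 and 34302 normalized counts with LPS + MSU in *Ncoa6*-sufficient and 31905 and 40880 in *Ncoa6*-KO BMDMs, was at -0.24 (interval -0.58 to 0.10) and -0.21 (interval -0.55 to 0.13).

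Ratios between receptors within a library do not depend on scaling. *Marco* per kb was 1.61 and 2.62 times *Msr1* in *Ncoa6*-sufficient BMDMs with LPS + MSU, which overlapped with the ratios with medium given above, and 1.76 and 1.82 times in *Ncoa6*-KO BMDMs, over both ratios with medium there. *Msr1* per kb was 0.127 and 0.128 times *Cd36* in *Ncoa6*-sufficient BMDMs with medium and 0.482 and 0.496 times with LPS + MSU. In *Ncoa6*-KO BMDMs this ratio went from 0.0864 and 0.126 to 0.355 and 0.402, and the stimulated libraries of the genotypes did not overlap. *Axl* per kb was 0.248 and 0.161 times *Mertk* with medium and 0.378 and 0.309 times with LPS + MSU in *Ncoa6*-sufficient BMDMs, and 0.113 and 0.162 against 0.279 and 0.369 times in *Ncoa6*-KO BMDMs, where the genotypes overlapped under both conditions. *Cd163* per kb was at most 0.0101 times *Mrc1* in any library.

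Markers of other cells moved with the stimulus as well. The summed normalized counts of 6 endothelial markers went from 656.7 to 800.0 with medium to 6563 to 6942 with LPS + MSU in *Ncoa6*-sufficient BMDMs and from 410.1 to 449.1 to 3079 to 5485 in *Ncoa6*-KO BMDMs, most of it *Kdr*. For 7 dendritic cell markers, the sums went from 18.9 to 24.8 to 219 to 279 and from 21.9 to 25.7 to 167 to 195. The sums of 8 neutrophil markers went from 323 to 347 to 532 to 696 and from 345 to 392 to 571 to 629. The sum of 6 erythroid and mast cell markers went from 279 to 346 to 24.9 to 45.5 and from 321 to 592 to 68.0 to 72.8. For 7 stromal markers the sums went from 414 to 478 to 936 to 992 and from 152 to 498 to 353 to 856, and for 7 osteoclast markers from 1785 to 2271 to 2418 to 2747 and from 1911 to 2421 to 2625 to 3046. The part of these cells in the receptor responses was not tested.

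**Figure D4:**
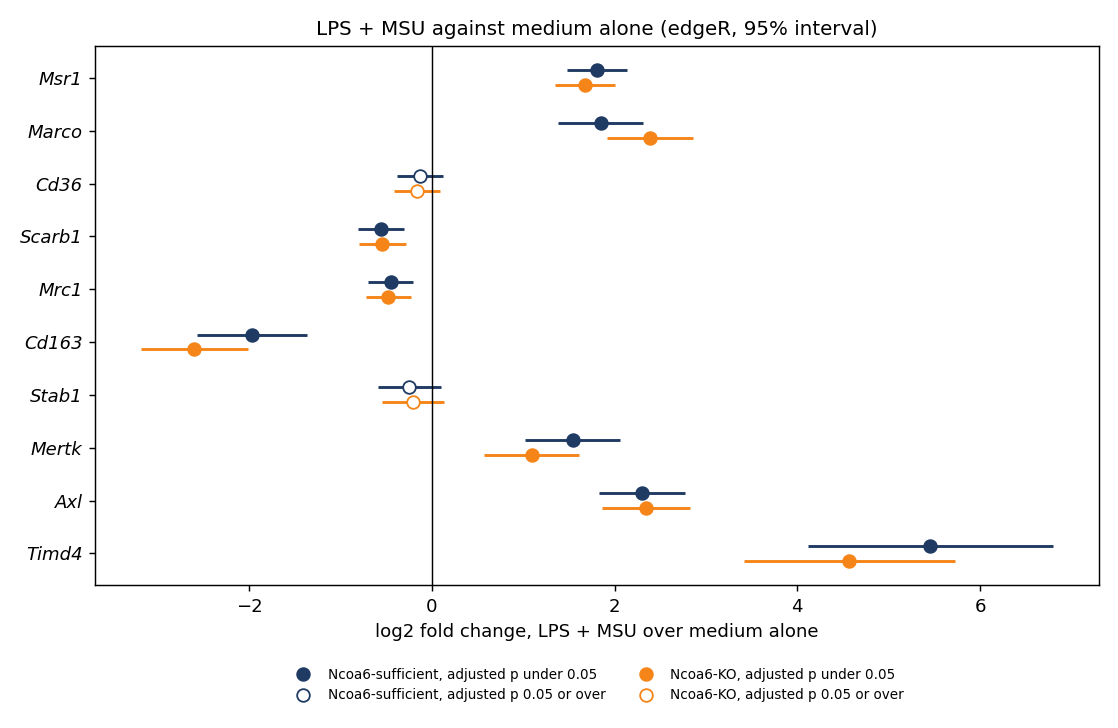
Log2 fold change of each receptor with LPS + MSU over medium alone from edgeR in *Ncoa6*-sufficient and *Ncoa6*-KO BMDMs, with lines for the 95% confidence interval; filled points passed an adjusted p of 0.05. Both genotypes show 5 receptors to the right of 0 and 3 to the left among the filled points, and the fitted values of *Timd4* rest on a few counts with medium.

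Whether the response to LPS + MSU differed between the genotypes was tested as an interaction. None of the 10 receptors passed, and none had an unadjusted p under 0.05. Over all genes edgeR called 0 (0%), with 1045 (5.93%) at an unadjusted p under 0.05, while DESeq2 called 43. The largest fitted difference among receptors with over 10 counts in every library was that of *Cd163* (-0.64, 95% confidence interval -1.52 to 0.25), followed by *Marco* (0.54, interval -0.10 to 1.18) and *Mertk* (-0.45, interval -1.17 to 0.27). For *Marco*, with the replicate number as a block within each genotype, the adjusted p was 0.00423, and for *Mertk* 0.0220. The difference for *Marco* without 1 library ranged from 0.24 to 0.84. A p that misses the threshold does not show that the responses were alike, and the intervals of *Marco*, *Cd163* and *Mertk* include differences of over 1.

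Other genes of the uptake pathway were taken from lists of related receptors, bridging ligands, signalling proteins and regulators. Of 14 other scavenger receptors tested, 1 rose and 2 fell in *Ncoa6*-KO BMDMs with medium and 1 rose with LPS + MSU, with medians of -0.11 and 0.08 beside -0.03 and 0.00 over all genes. The shares of all genes that passed in edgeR were 1.88% with medium and 3.59% with LPS + MSU. At an unadjusted p under 0.05 in edgeR were 6 and 3 of the 14, beside 12.8% and 17.4% of all genes. *Cxcl16*, a membrane-bound chemokine that also takes up oxidized LDL, had 3038 and 2391 normalized counts in *Ncoa6*-sufficient and 1668 and 985 in *Ncoa6*-KO BMDMs with medium (log2 fold change -1.03, adjusted p = 0.0412 from edgeR). With LPS + MSU it had 15334 and 13547 against 13150 and 10615 (-0.28, adjusted p = 0.553). *Ssc5d*, which encodes a soluble protein with scavenger receptor domains, had 92.3 and 65.4 against 37.5 and 26.3 with medium (-1.29, adjusted p = 0.0414). *Colec12*, a scavenger receptor with a C-type lectin domain, rose by 0.45 (adjusted p = 0.0363) with medium and 0.44 (adjusted p = 0.0318) with LPS + MSU. These calls passed in few of the 8 fits that left out 1 library: 1 for *Cxcl16*, 2 for *Ssc5d*, and 4 with medium and 2 with LPS + MSU for *Colec12*. Of the 8 other alternatives, 7 kept the call of *Cxcl16* and 5 that of *Ssc5d*. For *Colec12*, 8 kept it with medium and 7 with LPS + MSU. Over all alternatives, between 0 and 4 of the list passed with medium and between 0 and 2 with LPS + MSU.

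Of 10 other receptors of dying cells tested, 2 rose and 1 fell with medium and 1 rose and 1 fell after LPS + MSU in *Ncoa6*-KO BMDMs, and the medians were -0.10 and 0.05. Over all genes, 1.88% passed with medium and 3.59% with LPS + MSU in edgeR. At an unadjusted p under 0.05 in edgeR were 4 and 3 of the 10, beside 12.8% and 17.4% of all genes. *Itgb3*, the beta chain of the vitronectin receptor, had 555 and 597 normalized counts in *Ncoa6*-sufficient and 1439 and 1508 in *Ncoa6*-KO BMDMs with medium (log2 fold change 1.36, adjusted p = 0.00463 from edgeR, standard error 0.174). In stimulated cells it had 125 and 150 against 305 and 507 (1.56, standard error 0.216, adjusted p = 0.00518). *Cd300lf*, which binds phosphatidylserine, moved the opposite way, with 1218 and 1479 against 804 and 818 with medium (-0.73, adjusted p = 0.00946) and 1682 and 1669 against 683 and 781 with LPS + MSU (-1.20, adjusted p = 0.000902). The genotypes did not overlap for either gene under either condition. The *Itgb3* call was lost without the first *Ncoa6*-sufficient library, with medium and with LPS + MSU alike, and that of *Cd300lf* with medium without the second *Ncoa6*-sufficient library. With LPS + MSU the call of *Itgb3* passed in 7 of the 8 other alternatives. *Tyro3*, the third kinase of the family of *Mertk* and *Axl*, passed with medium (adjusted p = 0.0229). It had 37 counts in *Ncoa6*-KO and 4 in *Ncoa6*-sufficient libraries, a ratio of 8.96 (counting interval 3.22 to 34.6, counting error only). With LPS + MSU its ratio was 1.63 (1.11 to 2.42), and it did not pass in edgeR (adjusted p = 0.336). The *Tyro3* call was lost without any 1 of the 4 libraries with medium, with an adjusted p of up to 0.268.

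Of 12 bridging ligands and opsonins, 2 rose with medium and 1 rose and 1 fell after LPS + MSU in *Ncoa6*-KO BMDMs, and the medians were -0.11 and -0.12. Over the alternatives 0 to 6 of them passed under either condition, beside 1.88% and 3.59% of all genes in edgeR. At an unadjusted p under 0.05 in edgeR were 5 and 6 of the 12, beside 12.8% and 17.4% of all genes. *Gas6* (chromosome 8 from 13465374 to 13494490), the ligand of *Axl*, *Mertk* and *Tyro3*, had 16142 and 14831 normalized counts in *Ncoa6*-sufficient and 22761 and 20541 in *Ncoa6*-KO BMDMs with medium (log2 fold change 0.48, adjusted p = 0.0441 from edgeR, standard error 0.104). In stimulated cells it had 8353 and 8154 against 13288 and 13514 (0.70, standard error 0.104, adjusted p = 0.00716). Its levels were higher where those of *Axl* were lower, but *Axl* did not pass in edgeR (adjusted p = 0.172 and 0.121). A link between these genes was not tested. For *Gas6* both *Ncoa6*-KO libraries lay over both *Ncoa6*-sufficient libraries under both conditions. Over all genes, 43.1% with medium and 47.4% with LPS + MSU did not overlap between the genotypes. The call for *Gas6* with medium was lost with any 1 library left out, and that with LPS + MSU without the first *Ncoa6*-sufficient or the second *Ncoa6*-KO library of that condition. With medium it passed in 7 of the 8 other alternatives. *Gas6* fell with LPS + MSU, by 0.91 (adjusted p = 1.89e-05) and 0.69 (adjusted p = 0.000169), where *Axl* and *Mertk* rose. *Edil3*, which links phosphatidylserine to integrins such as that of *Itgb3*, had 231 and 237 against 362 and 373 normalized counts with medium (0.65, adjusted p = 0.0209) and 238 and 234 against 315 and 341 with LPS + MSU (0.47, adjusted p = 0.0613), and its call with medium passed in 5 of 8 fits without 1 library. *Thbs1*, thrombospondin-1, a ligand of *Cd36*, had 2508 and 1691 against 1030 and 1357 with LPS + MSU (-0.82, adjusted p = 0.0421). This call passed in 3 of 8 fits without 1 library and in 5 of the 8 other alternatives.

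**Figure D5:**
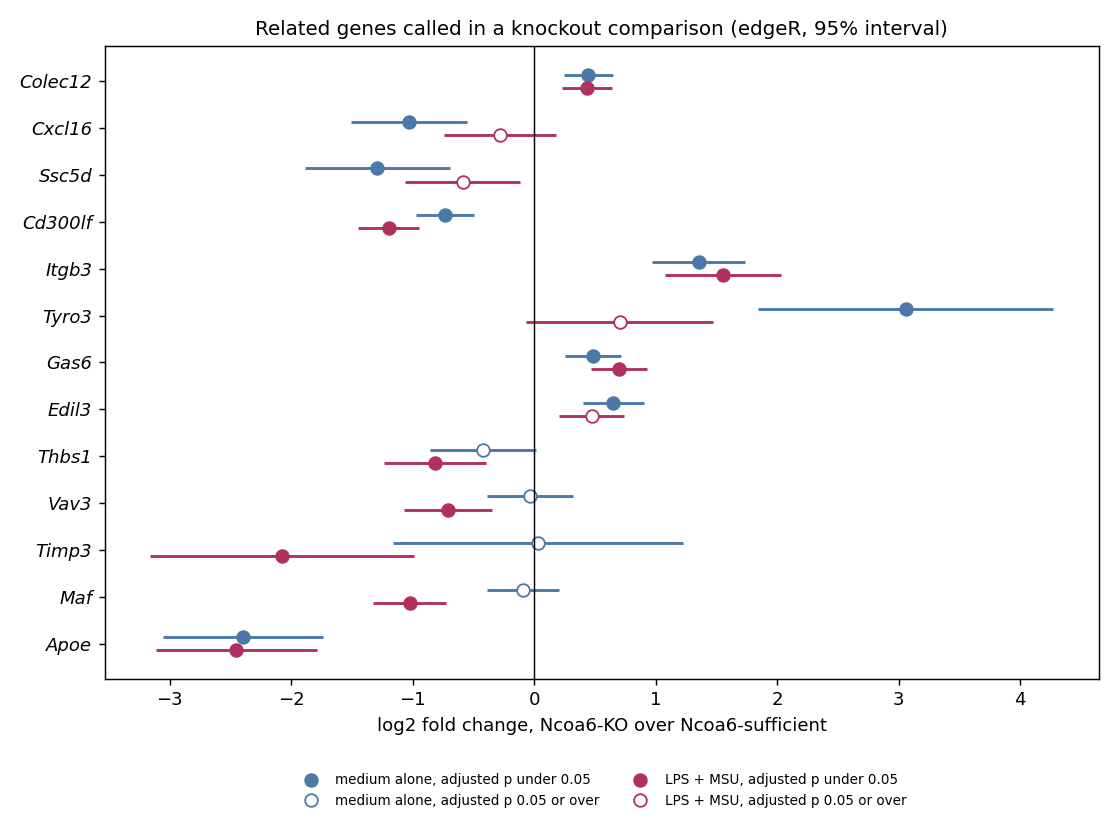
Log2 fold change in *Ncoa6*-KO over *Ncoa6*-sufficient BMDMs from edgeR, with lines for the 95% confidence interval, for the related genes that passed in at least 1 culture condition; filled points passed an adjusted p of 0.05. *Itgb3*, *Gas6* and *Colec12* lie to the right and *Cd300lf* and *Apoe* to the left of 0 under both conditions.

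Genes that act after binding were read beside the same shares of all genes, 1.88% called with medium and 3.59% with LPS + MSU. For an unadjusted p under 0.05 in edgeR, the shares of all genes were 12.8% and 17.4%. Of 15 engulfment signalling genes tested, 0 passed with medium and 1 fell with LPS + MSU, with medians of -0.11 and -0.13. In edgeR 4 and 5 had an unadjusted p under 0.05, and over the alternatives, DESeq2 included, 0 to 2 passed with medium and 0 to 4 with LPS + MSU. The gene that fell was *Vav3*, a guanine nucleotide exchange factor, with 1729 and 1452 against 1180 and 765 normalized counts (log2 fold change -0.71, adjusted p = 0.0431 from edgeR). This call passed in 3 of 8 fits without 1 library and in 6 of the 8 other alternatives. Of 7 genes of receptor shedding, 0 passed with medium (2 at an unadjusted p under 0.05 in edgeR, 0 in any alternative). With LPS + MSU 5 had an unadjusted p under 0.05 in edgeR, and 1 passed, as lower. It was *Timp3*, which inhibits the sheddase ADAM17, with 56.8 and 46.8 against 9.1 and 15.4 normalized counts (-2.08, adjusted p = 0.0453). This call passed in 2 of 8 fits without 1 library and in 6 of the 8 other alternatives. Of 15 genes of lipid handling after uptake, *Apoe*, which encodes apolipoprotein E, passed alone, with log2 fold changes of -2.40 (adjusted p = 0.00413) and -2.45 (adjusted p = 0.00348), and the median of the list was 0.01 with medium and -0.02 with LPS + MSU. The *Apoe* call was lost without the first *Ncoa6*-sufficient library with medium (adjusted p = 0.0515) and, for LPS + MSU, without the second *Ncoa6*-KO library of that condition (adjusted p = 0.0586). Of the lipid handling genes, 1 and 2 had an unadjusted p under 0.05 in edgeR. Between 0 and 3 genes of this list passed over the alternatives under either condition, and between 0 and 4 of the shedding genes with LPS + MSU.

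Of the regulators of these receptors, 17 genes were tested. They include genes of transcription factors, such as *Pparg*, *Nr1h3* and *Rxra*, and also *Hmox1*, which encodes an enzyme. With medium 0 passed (1 at an unadjusted p under 0.05 in edgeR, and 0 or 1 passed in the other fits). With LPS + MSU 1 fell in *Ncoa6*-KO BMDMs (0 to 2 over the other fits). The medians were -0.05 and 0.16. With LPS + MSU, 8 had an unadjusted p under 0.05 in edgeR. Over all genes, 1.88% and 3.59% passed under the 2 conditions, and 12.8% and 17.4% had an unadjusted p under 0.05. *Maf*, which encodes c-Maf, had 8022 and 7385 against 7564 and 6915 normalized counts with medium (log2 fold change -0.09) and 16528 and 13257 against 8066 and 6581 with LPS + MSU (-1.02, standard error 0.137, adjusted p = 0.00472 from edgeR). The *Maf* call was lost without the second *Ncoa6*-KO library with LPS + MSU. Genes on the opposite strand overlap with *Gas6*, *Cxcl16*, *Ssc5d*, *Cd300lf*, *Thbs1*, *Timp3* and *Maf*, and with *Mertk* and *Stab1* among the receptors. The libraries keep strand, but the strand setting of the counting is not given in the sources used here.

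The genes whose pattern was most like that of *Marco* were found by the distance between log2 CPM over the 8 libraries, each gene centred on its mean, among 11199 genes that averaged 50 normalized counts or more. *Sema4a*, a semaphorin, was nearest (distance 0.591), followed by *Noct*, which encodes nocturnin (0.659), and *Itgal*, the alpha chain of the integrin LFA-1 (0.735). They were picked by their likeness to *Marco* in these same libraries, so fold changes like those of *Marco* follow from the choice. Their log2 fold changes in *Ncoa6*-KO BMDMs were -0.87, -0.68 and -0.87 with medium and -0.61, -0.51 and -0.92 with LPS + MSU. With LPS + MSU over medium they were 1.85, 2.01 and 2.28 in *Ncoa6*-sufficient BMDMs.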

How the data were processed

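Poly(A) RNA of 8 BMDM libraries was sequenced in pairs of reads with a stranded kit. The authors used STAR 2.7.3a on GRCm38 and RSEM 1.3.3 and deposited unnormalized expected counts. Counts per library summed to 25281955 to 33673552. Expected counts were rounded, genes with a sum under 10 were removed, as in the methods of the study, and the 4 groups were fitted together by edgeR 4.0.16 (R 4.3.3; TMM factors, quasi-likelihood test, 4 residual degrees of freedom, median biological coefficient of variation 0.114). p-values were adjusted by the Benjamini-Hochberg method over 17625 genes, and genes passed under 0.05. An exact permutation test of 2 against 2 libraries cannot give a p-value under 0.333, so p-values rest on a spread shared among genes. Ensembl IDs were matched to symbols, and exon lengths and overlaps were taken from GENCODE on GRCm38. Motifs were searched on both strands. Alternatives were DESeq2 1.42.0, its size factors in edgeR, filterByExpr, no filter, a block for the replicate number, limma-voom (limma 3.58.1) without rounding, only the 4 libraries compared and each library left out; library size without TMM factors was added after seeing the data. The code was tested on simulated data. The receptors, lists and tests were chosen with earlier results of these data known. Of related lists, genes that passed in a genotype comparison are named, at most 4 per list, and for *Marco* the 3 nearest genes. One regulator on these lists is not reported here.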

Additional observations from a re-analysis of the deposited data

How the results depend on the processing

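With medium alone, the count of receptors that passed between genotypes was 1 in edgeR and 2 with DESeq2, without a filter and with the replicate block, and it ranged from 0 to 1 with each library left out. With LPS + MSU it was 0 in edgeR, 3 with DESeq2, and 4 without a filter and with the replicate block. The interaction gave 0, and 2 with the replicate block within genotype. Over all genes, 331 passed with medium, 1152 without a filter, 1023 with the replicate block and 22 to 372 with 1 library left out; with LPS + MSU, 632 passed, 1611 without a filter, 1532 with the replicate block, 139 with only the 4 libraries compared and 58 to 761 with 1 library left out; for the interaction, 0 passed, and DESeq2 gave 43, no filter 269, the replicate block 86, the block within genotype 444 and 1 library left out 0 to 23. The cause of these differences was not tested. All calls of the LPS + MSU responses of receptors kept their direction in every alternative. Library size without TMM factors turned the sign of the LPS + MSU response of *Cd300lf* in *Ncoa6*-sufficient BMDMs (-0.36), which edgeR had called as higher. It also turned the sign of responses that were not called in edgeR. These were *Edil3* (-0.66) and *Vav3* (-0.41) in *Ncoa6*-sufficient BMDMs, *Maf* (-0.62) and *Timp3* (-0.21) in *Ncoa6*-KO BMDMs, and *Apoe* in both genotypes (-0.37 and -0.38). With library size, 20.6% and 21.4% of the called genes were higher in the response, from 44.8% and 47.5%. Of those called between genotypes with LPS + MSU, 68.8% were higher, from 54.6% (40.8% with DESeq2). Libraries with the same number in different groups had correlations of their deviations of 0.0523 to 0.369 across 11219 genes, highest within a genotype (0.310 and 0.369), a hint from the data only, since with 2 numbers per group and no label the pairing was not used; the replicate block gave the counts above.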
